A study of Mus musculus with 6 samples.

Results

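Keratin genes, 52 of the 23412 genes in the table, were followed in ventral dermis of mice with and without activated beta-catenin in dermal fibroblasts. Members were all genes whose symbol begins with Krt and a digit. They fell into 15 hair shaft keratins (numbers 31 to 40 and 81 to 86), 8 inner root sheath keratins (25 to 28 and 71 to 74) and 29 other epithelial keratins. RNA came from 3 mutant mice (HoxB6CreERT/+; R26-YFP/+; CatnbΔex3/+) and from 3 control littermates (HoxB6CreERT/+; R26-YFP/+), all on a mixed CD1 and C57BL/6 background. Every dam was given tamoxifen by gavage on embryonic day 16.5, so the controls too carried the Cre and the yellow fluorescent reporter, and all mice were killed 3 weeks after birth. The allele loses exon 3 of beta-catenin, which stabilises the protein, in cells where the HoxB6 promoter drives Cre. How many cells of a library had recombined was not measured here. Ctnnb1, the beta-catenin gene, was at 201, 163 and 183 FPKM in controls and 193, 136 and 168 in mutants, a whole-gene value that cannot show the loss of 1 exon. The study set out to follow sustained beta-catenin activity in dermal fibroblasts, and keratins report on the epithelium beside them.

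Keratins are the filament proteins of epithelia. A type I (acidic) and a type II (basic) keratin pair to form each filament, and each layer of skin and hair follicle has its own pairs. Hair shaft keratins are rich in cysteine and are made in the cortex and cuticle of the growing hair, inner root sheath keratins in the sheath that moulds it, and the others in outer root sheath, epidermis and glands. Beta-catenin with its LEF and TCF partners acts in hair matrix cells on hair keratin genes and in the dermal papilla on signals to the matrix.

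Although the epidermis had been taken off after trypsin, all 6 libraries held follicle epithelium. The share of gene reads that fell in keratins was 2.78%, 3.45% and 3.01% among the controls, in order of number, and 2.68%, 1.72% and 2.71% among the mutants. The highest keratin ranked between 6 and 12 among all genes of a library by FPKM (fragments scaled for gene length and library depth, so that levels of different genes can be compared). The epithelial genes Trp63, Cdh1 and Epcam, which mark keratinocytes, stood between 26.9 and 52.6 FPKM in every library. Reads assigned to genes ran from 7799565 to 13478910 per library. Xist, transcribed from the inactive X of females, reached 55.5 FPKM in control 1 and 66.2 in control 2. It was at 6.47 FPKM in mutant 2 but at 0.0827 to 0.184 in control 3 and mutants 1 and 3. The Y-linked gene Ddx3y was at 0.0127 and 0.0136 FPKM in controls 1 and 2 and at 13.2 to 19.1 in the other libraries. Mutant 2, with Ddx3y at 13.2, thus held both RNAs, and the reason was not tested. Library sex and genotype were therefore not balanced. In whole tissue, fewer cells of a type and less RNA per cell cannot be told apart.

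The keratins lie in 2 clusters (GENCODE M21, GRCm38). Of the 51 genes given a location, 27 type I genes lie on chromosome 11 between 99232761 and 100269871, and 23 type II genes with the type I gene Krt18 on chromosome 15 between 101347444 and 102032027. On chromosome 11 Krt25 to Krt28 adjoin each other and reached means of 136 to 1287 FPKM over the 6 libraries. The run from Krt33a to Krt36 lies in one stretch as well, with means of 18.8 to 599 FPKM. On chromosome 15 the run from Krt81 to Krt75 had means of 6.54 to 256 FPKM. Some neighbours differed widely in level: Krt9, the keratin of palm and sole, had a mean of 0.0358 FPKM beside Krt14 with 204. Krt6b had 0.0412 beside Krt6a with 41.8.

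**Figure D1:**
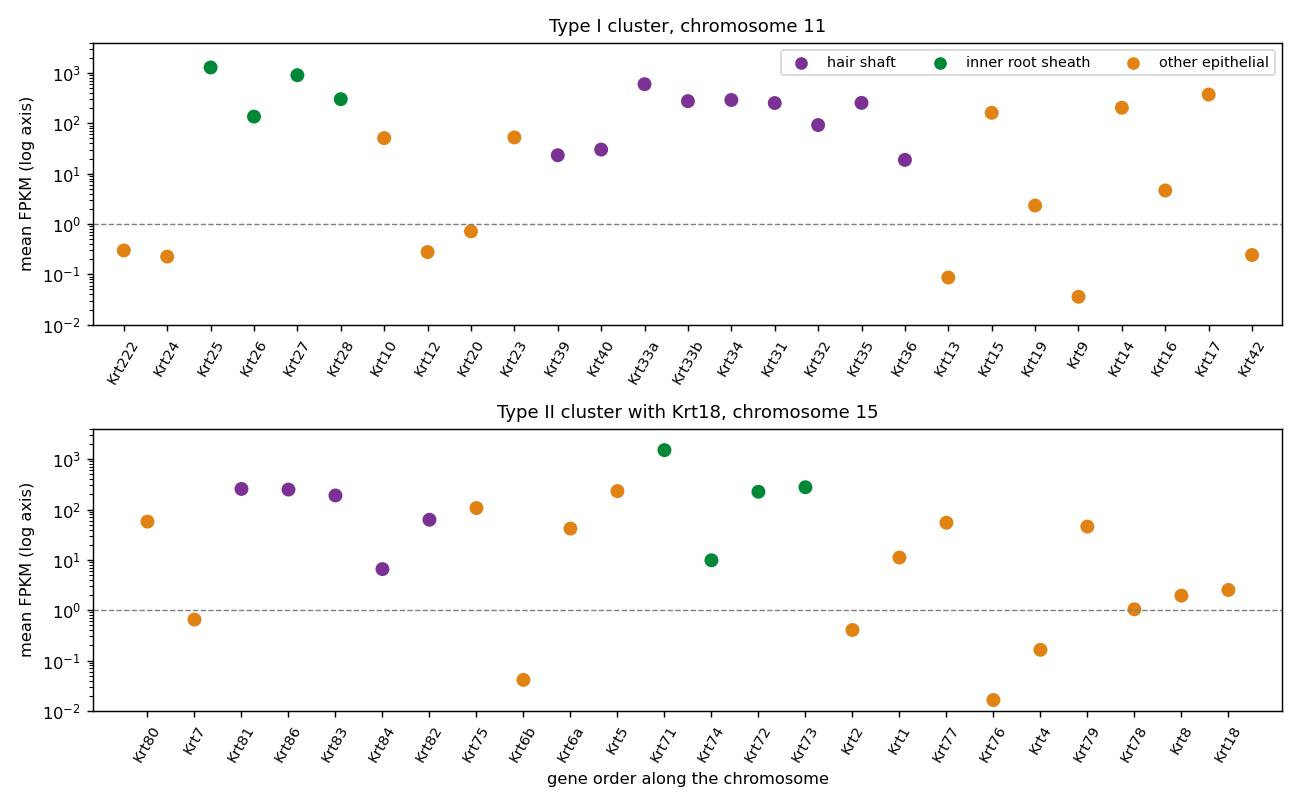
Mean FPKM over the 6 libraries (log axis) of 51 keratin genes in their order along chromosome 11 (upper panel) and chromosome 15 (lower panel), coloured by group. The dashed line marks 1 FPKM, the limit for testing, and the sheath genes Krt25, Krt27 and Krt71 stand highest.

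Because the hair shaft keratins varied together across libraries, the sequence before their start sites is shown. It is taken from RefSeq (GRCm38.p6), which gave a promoter for 35 of the 52 keratins. The first 4 are type I hair shaft genes that lie near each other and were picked among those that hold the letters marked. Krt36, from the same run of genes, has a promoter in the table without these letters. Krt25 is the type I sheath gene with the highest level, from another stretch of the same cluster. Each run holds the 250 bases up to the start site. Capitals mark letters bound by TCF and LEF factors (the 4 forms searched, on both strands, were CTTTGAA with its variant CTTTGAT and the form CTTTGTA with its variant CTTTGTT) and, in the last 40 bases, TATAAA, searched on the printed strand.
Krt31 (chr11:100050552-100050801, minus strand): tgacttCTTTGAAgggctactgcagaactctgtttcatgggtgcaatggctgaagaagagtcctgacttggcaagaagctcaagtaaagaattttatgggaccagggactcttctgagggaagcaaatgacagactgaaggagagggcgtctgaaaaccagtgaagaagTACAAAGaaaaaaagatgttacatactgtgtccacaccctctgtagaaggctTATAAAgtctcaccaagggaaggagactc
Krt32 (chr11:100088270-100088519, minus strand): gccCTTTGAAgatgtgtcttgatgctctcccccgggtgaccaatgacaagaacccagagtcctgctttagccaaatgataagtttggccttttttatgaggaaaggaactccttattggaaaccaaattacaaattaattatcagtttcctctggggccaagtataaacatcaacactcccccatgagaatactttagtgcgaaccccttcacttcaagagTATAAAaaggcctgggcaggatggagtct
Krt33b (chr11:100029869-100030118, minus strand): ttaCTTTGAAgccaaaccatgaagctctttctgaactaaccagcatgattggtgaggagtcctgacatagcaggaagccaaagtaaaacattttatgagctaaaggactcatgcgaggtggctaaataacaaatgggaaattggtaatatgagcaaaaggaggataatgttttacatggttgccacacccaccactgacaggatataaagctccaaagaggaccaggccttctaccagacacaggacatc
Krt34 (chr11:100041555-100041804, minus strand): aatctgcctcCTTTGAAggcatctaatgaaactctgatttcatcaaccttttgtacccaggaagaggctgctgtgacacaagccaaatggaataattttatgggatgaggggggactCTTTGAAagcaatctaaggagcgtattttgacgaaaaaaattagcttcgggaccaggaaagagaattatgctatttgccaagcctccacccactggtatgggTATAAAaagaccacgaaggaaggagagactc
Krt25 (chr11:99322952-99323201, minus strand): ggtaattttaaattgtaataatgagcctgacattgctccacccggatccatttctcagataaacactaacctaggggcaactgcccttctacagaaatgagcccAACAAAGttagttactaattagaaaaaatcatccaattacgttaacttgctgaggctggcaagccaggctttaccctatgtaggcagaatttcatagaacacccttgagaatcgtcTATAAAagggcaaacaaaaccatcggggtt
In Krt31, Krt32, Krt33b and Krt34 the letters CTTTGAA begin 244, 247, 247 and 240 bases before the start site. Krt34 has the same letters again 133 bases before the start, and Krt25 has CTTTGTT on the other strand at 146. These hair shaft genes are close relatives, so the shared letters are not independent. TCF and LEF letters were in 5 of 9 hair shaft promoters (55.6%), 1 of 7 inner root sheath promoters (14.3%), 2 of 19 other keratin promoters (10.5%) and 16.8% of 27025 genes with a promoter of that length. TATAAA was in 4 of 9, 6 of 7, 4 of 19 and 2.78% of them in the same order. A match of letters does not show that a factor binds there.

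No keratin passed the test between mutant and control. Of the 52 genes, 40 had a mean of at least 1 FPKM and were tested. With limma, 0 rose and 0 fell at an adjusted p under 0.05, where 0.143% of 12560 tested genes rose and 0% fell. At an unadjusted p under 0.05, 6 keratins were higher and 2 lower, beside 10.5% and 0.748% of all tested genes. Limma-voom on reads recovered from the FPKM steps also called 0, with 4 higher and 18 lower at an unadjusted p under 0.05, beside 9.21% and 6.98% of all tested genes. The split also moved with the scaling of the FPKM values. It was 4 higher and 7 lower after median-of-ratios scaling (10.5% and 6.14% of all tested genes) and 2 and 9 after quantile normalization (9.52% and 7.91%). It was 3 and 14 when libraries were rescaled without keratin and keratin-associated genes (7.92% and 9.26%). Groups did not overlap in 3 keratins upward and 1 downward, where 13.0% and 2.65% of all tested genes did so. Differences below are on the log2(FPKM + 1) scale, mutant minus control, and are best set against the median of all tested genes, 0.09. An exact permutation test of 3 against 3 libraries cannot give a p below 0.1.

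**Figure D2:**
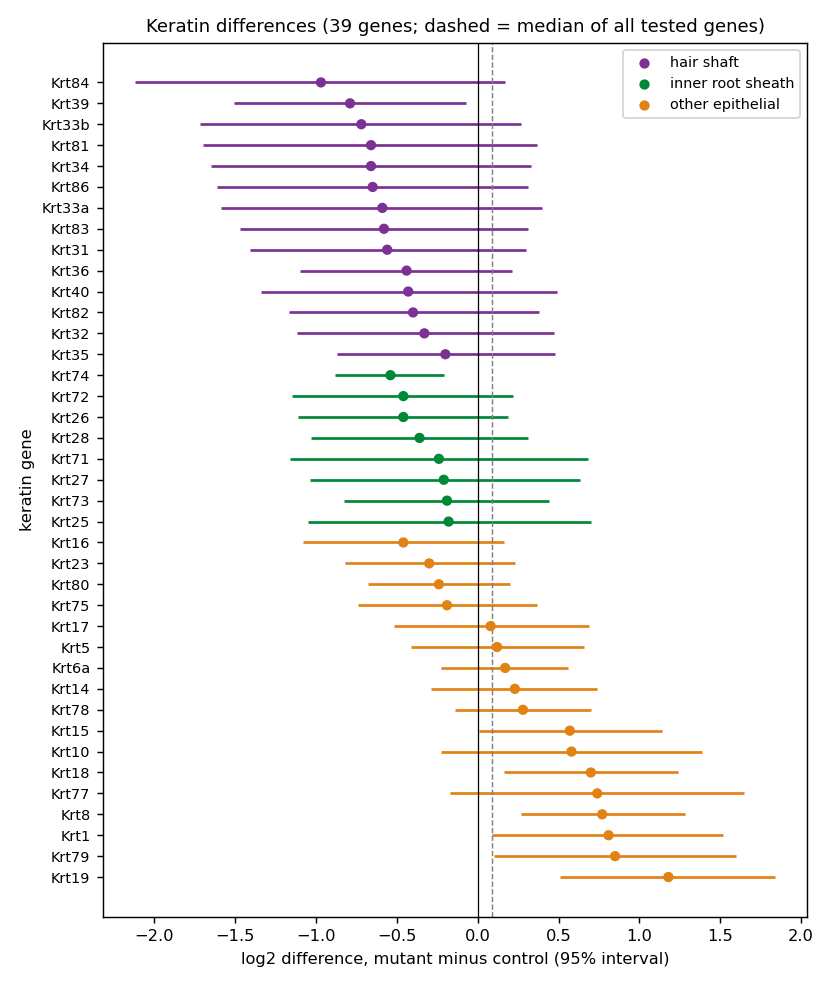
Log2 difference (mutant minus control) with its 95% interval for 39 tested keratins, coloured by group and ordered within it. All hair shaft and inner root sheath points lie below 0, with most intervals crossing it, and Krt19 has the largest positive difference, 1.18.

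The hair shaft keratins were lower in the mutant mean in 15 of 15 genes, where 28.7% of all tested genes were below 0, but the groups overlapped in all 15. Their median difference was -0.59 (range -0.97 to -0.20, adjusted p from 0.388 to 0.893). The FPKM sum of the 15 genes was 2233, 3186 and 3829 for the controls by number and 2976, 1072 and 2609 for the mutants. Mutant 2 was the lowest library in 15 of 15 genes, where it was lowest in 35.2% of all tested genes. Control 3 was the highest in 15 of 15, where it was highest in 8.58% of all tested genes. Control 1 lay under mutants 1 and 3 in this sum. Without mutant 2 the median was -0.13, with 11 of 15 genes below 0, while that of all tested genes was 0.17.

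**Figure D3:**
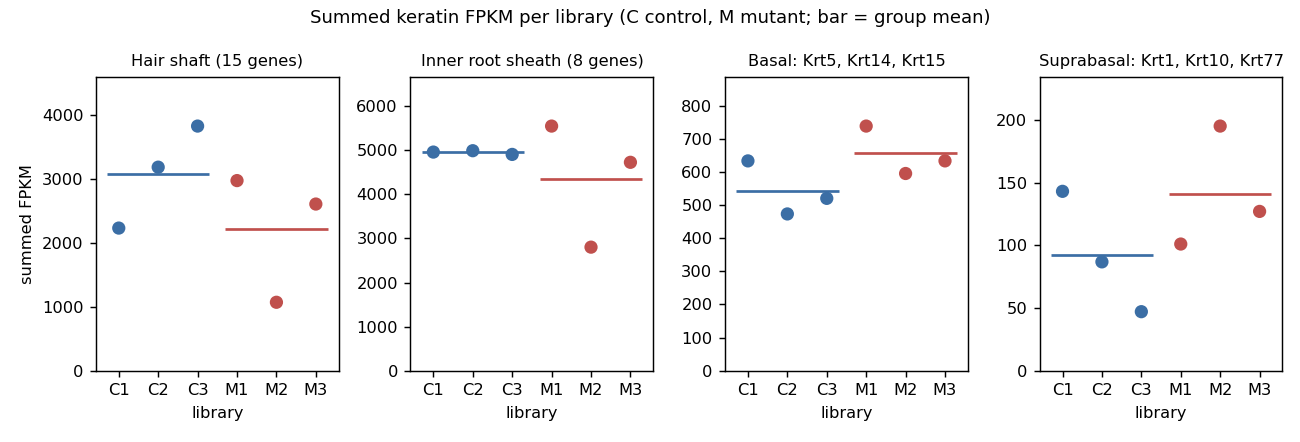
Summed FPKM per library (C1 to C3 controls, M1 to M3 mutants, horizontal bar the group mean) of hair shaft, inner root sheath, basal and suprabasal keratins, each axis starting at 0. Mutant 2 is lowest in the hair shaft sum (1072) and the sheath sum (2801) and highest in the suprabasal sum (195).

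Among the cortex keratins, which form the body of the hair, Krt33a (chromosome 11, 100011195 to 100016212) had the highest level. It was at 502, 753 and 841 FPKM in controls, and at 669, 232 and 598 in mutants. The group means were 698 ± 176 and 499 ± 234 FPKM (SD, n = 3 each), and the difference was -0.59 (95% interval -1.59 to 0.40, limma adjusted p = 0.723). Its neighbour Krt34 was at 226, 375 and 442 FPKM in controls and 319, 105 and 281 in mutants, a difference of -0.66 (SE 0.44). Krt33b was at 220, 326 and 461 FPKM in controls and 303, 97.2 and 247 in mutants. All these genes show control 1 under mutant 1 and mutant 2 far below the rest. The type II cortex keratin Krt81 was at 203, 335 and 370 FPKM in controls and 295, 84.8 and 251 in mutants, and followed the same order of libraries.

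Krt35, which is made early in hair differentiation, moved least between libraries of any hair shaft keratin. It was at 244, 241 and 321 FPKM in controls and at 306, 160 and 256 in mutants. Its highest library was 2.01-fold its lowest, against 4.21-fold for Krt34 and 4.74-fold for Krt33b. The cuticle keratins Krt32 and Krt82 followed at 2.73-fold and 2.97-fold. Krt34 relative to Krt35 was 0.925, 1.56 and 1.38 in controls and 1.04, 0.658 and 1.09 in mutants, so this ratio too was lowest in mutant 2, with control 1 next. The pair was chosen after the values were seen.

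Krt84, a keratin of tongue and nail that is scarce in hair, had the widest spread, 13.6-fold. It was at 4.69, 10.2 and 10.7 FPKM in controls (205 to 417 reads) and at 6.72, 0.784 and 6.14 in mutants, where mutant 2 had 43 reads. Its difference was -0.97 (95% interval -2.12 to 0.17, limma adjusted p = 0.538). Krt39, a type I hair keratin, had the smallest unadjusted p of the hair shaft group. It stood at 19.9, 33.9 and 34.2 FPKM in controls and at 20.4, 9.12 and 21.8 in mutants, a difference of -0.79 (SE 0.32, limma adjusted p = 0.388). Control 1 lay below mutants 1 and 3.

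Cortex keratins resemble each other closely, which bears on the reads given to each. Krt33a and Krt33b were 93.4% identical over their coding sequence, Krt81 and Krt86 93.3%, and Krt81 and Krt83 93.2%. The share of 50-base stretches that also occur in another keratin was 40.5% for Krt86 and 33.1% for Krt34, but 2.7% for Krt35. How the authors' counting treated reads from shared stretches is not given in the sources used here. Values within these sets are therefore uncertain, and their sums are too if such reads were dropped.

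Inner root sheath keratins were the most abundant and varied less between libraries. All 8 were lower in the mutant mean, with a median of -0.30 (range -0.54 to -0.18), and in 1 every mutant lay below every control, as in 2.65% of all tested genes. Their sum was 4955, 4986 and 4902 FPKM in controls, a spread of 42.7 (SD) around 4948, and 5544, 2801 and 4723 in mutants. On this FPKM scale mutant 1 thus lay above all controls and mutant 2 far below them. Mutant 1 also had the highest FPKM sum over all genes, 281766, against 192880 to 235396 in controls. The sheath share of gene reads was 1.61%, 1.87% and 1.51% in controls and 1.48%, 0.929% and 1.47% in mutants. In that share every mutant lay below every control. Without mutant 2 the median difference was -0.03, with 4 of 8 genes below 0, while that of all tested genes was 0.17. Without mutant 1 the sheath median was -0.48, beside 0.01 for all tested genes.

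Mutations in the type II sheath keratin Krt71 or in the type I sheath keratin Krt25 give mice a wavy coat. Krt71 (chromosome 15, 101733949 to 101743109) was at 1627, 1623 and 1567 FPKM in controls and 1823, 896 and 1526 in mutants. The difference of -0.24 (95% interval -1.16 to 0.68) did not pass (limma adjusted p = 0.903). Krt25 was at 1376, 1341 and 1309 FPKM in controls and 1543, 801 and 1353 in mutants. Krt71 relative to Krt25 stayed between 1.12 and 1.21 in the 6 libraries. Krt27 was at 951, 988 and 910 FPKM in controls and 1112, 541 and 924 in mutants, with mutant 1 highest and mutant 2 lowest here too. Krt28 was at 310, 312 and 385 FPKM in controls and 338, 181 and 287 in mutants. Of the sheath cuticle keratins, Krt26 was at 144, 179 and 142 FPKM in controls and 151, 73 and 127 in mutants. Krt72 was at 231, 258 and 278 FPKM in controls and 250, 119 and 212 in mutants.

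Krt74 was the one keratin below the controls in every mutant. GENCODE lists it in mouse as a transcribed unitary pseudogene (chromosome 15, 101754259 to 101763504), a gene that lost its coding function. It was at 9.91, 13.5 and 12 FPKM in controls (268 to 341 reads) and at 7.27, 7.25 and 8.76 in mutants (226 to 296 reads). The difference of -0.54 (SE 0.15, 95% interval -0.88 to -0.21) had a limma adjusted p of 0.185. Krt74 is the sheath gene in which mutants 1 and 2 were alike, at 61.5% and 61.4% of the control mean. In Krt71 they were at 114% and 55.8%.

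The hair shaft sum relative to the inner root sheath sum was 0.451, 0.639 and 0.781 in controls and 0.537, 0.383 and 0.553 in mutants. The 3 controls thus differed in the hair shaft share of their follicle keratins. Their sheath sums were nearly level in FPKM, but as a share of gene reads they were 1.61%, 1.87% and 1.51%. In the ratio of hair shaft to sheath, mutant 2 was lowest and control 1 next. Summed type I over type II keratins ranged only from 1.52 to 1.6. Within the hair shaft that ratio ran from 2.16 to 2.56 and within the sheath from 1.27 to 1.33.

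**Figure D4:**
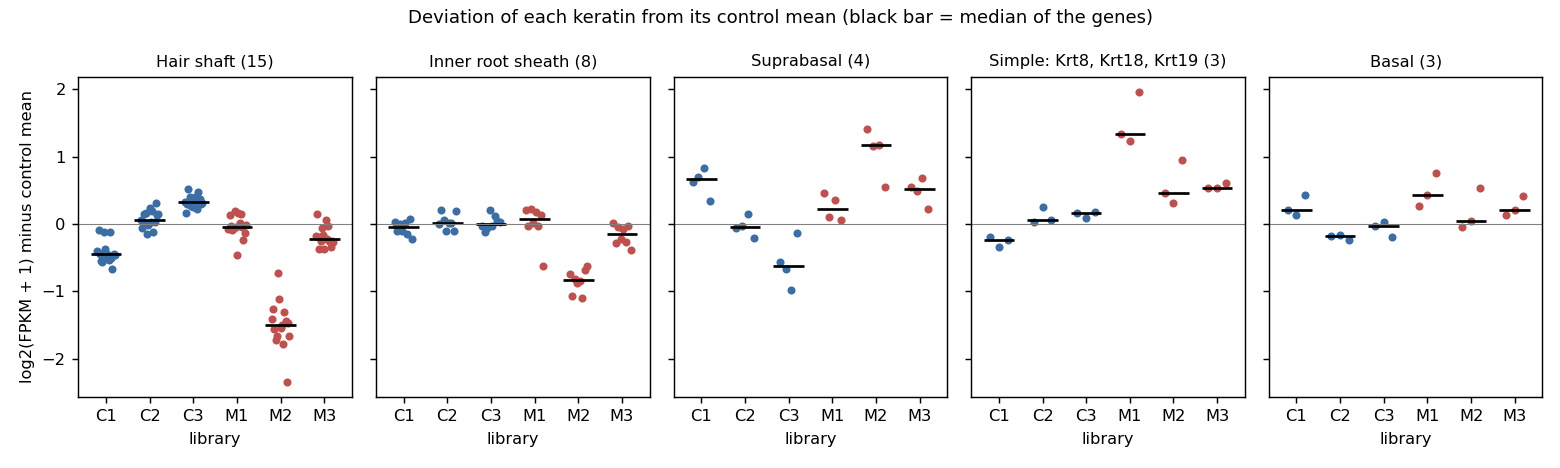
Log2(FPKM + 1) of each keratin minus its control mean, by library (C1 to C3 controls, M1 to M3 mutants), with the median of the genes as a black bar. In mutant 2 the hair shaft median is -1.50 and the suprabasal median 1.16, and in control 3 they are 0.33 and -0.62.

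Other genes of hair shaft and sheath, from a list without keratins, were also lowest in mutant 2. All 12 tested were below 0, with a median of -0.46, 0 called and 0 with separate groups, and mutant 2 was lowest in 12 of 12. Tchh, which encodes the trichohyalin that sheath keratins are embedded in, was at 1436, 1927 and 1649 FPKM in controls and 1437, 690 and 1268 in mutants. Tgm3, a transglutaminase that cross-links hair proteins, was at 17.2, 26.1 and 29.1 FPKM in controls and 19.5, 7.85 and 19.3 in mutants. The keratin-associated proteins, in which hair keratin filaments are embedded, had 49 tested genes, all below 0, with a median of -0.64 and mutant 2 lowest in 48.

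Of 11 tested transcription factors of hair matrix, shaft and sheath, all 11 were below 0, with a median of -0.31 and 0 called. In 4 of them every mutant lay below every control, as in 2.65% of all tested genes. Hoxc13, which activates hair keratin genes, was at 27.9, 24.7 and 27.6 FPKM in controls and 21.5, 16.8 and 24.1 in mutants, a difference of -0.36 (limma adjusted p = 0.469). Lef1, the partner of beta-catenin in hair matrix, was at 18.1, 17.1 and 17.4 FPKM in controls and 14.6, 12.1 and 15.5 in mutants, a difference of -0.31 (limma adjusted p = 0.464). Foxq1, needed for normal hair medulla, was at 6.09, 7.89 and 7.54 FPKM in controls and 6.12, 3.37 and 5.63 in mutants. No values overlap between the groups in Hoxc13 and Lef1, whereas in Foxq1 control 1 lies under mutant 1.

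Beside these values, other parts of the tissue also differed between libraries. Of 10 fibroblast markers, 10 were above 0 (71.3% of all tested genes were) and 7 had every mutant above every control (13.0% of all tested genes did), with a median of 0.97. Their summed FPKM was 2738 to 10510 in controls and 9543 to 13752 in mutants. The 8 leukocyte markers summed to 26.7 to 43 FPKM in controls and 74.7 to 121 in mutants. All 8 were above 0, and in 7 every mutant lay above every control. Cd52, Fcer1g, Ptprc and Coro1a passed (limma adjusted p from 0.0242 to 0.0442), 4 of 8 where 0.143% of all tested genes were called higher. Division genes, which are high in hair matrix, had a median of 0.09 and sums of 141 to 192 FPKM in controls and 151 to 184 in mutants. Pigment cell genes summed to 67.2 to 74.7 FPKM in controls, and to 78.8, 44.8 and 74.6 in mutants 1 to 3. The part of tissue makeup in the hair keratin values was not tested.

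Of the 17 other epithelial keratins tested, 13 were above 0, where 71.3% of all tested genes were, and their median was 0.28. Basal keratins mark the dividing layer of epidermis and outer root sheath, and the groups overlapped in all 3. Krt14 was at 205, 168 and 192 FPKM in controls and 253, 193 and 216 in mutants, a difference of 0.23 (95% interval -0.29 to 0.74, limma adjusted p = 0.814). Its partner Krt5 was at 254, 196 and 216 FPKM in controls and 267, 215 and 243 in mutants. Krt5 relative to Krt14 ranged from 1.06 to 1.24. Krt15, also a marker of follicle stem cells, was at 174, 109 and 113 FPKM in controls and 219, 187 and 173 in mutants, a difference of 0.57 (SE 0.25, limma adjusted p = 0.437). Control 1 overlapped mutant 3 by a narrow margin. Relative to Krt5 and Krt14 together, the hair shaft sum was 4.86, 8.76 and 9.39 in controls and 5.73, 2.63 and 5.68 in mutants, so mutant 2 stood apart on this scale as well.

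Keratins of the outer root sheath and companion layer, the follicle layers outside the inner root sheath, had differences from -0.46 (Krt16) to 0.85 (Krt79), with a median of 0.08 over the 5 tested, and the groups overlapped in all 5. Krt17 was at 378, 337 and 364 FPKM in controls and 449, 309 and 399 in mutants. Its difference of 0.08 (limma adjusted p = 0.959) turned to -0.03 after median-of-ratios scaling. Krt75, the companion layer keratin, was at 107, 108 and 121 FPKM in controls and 123, 69.4 and 111 in mutants, low only in mutant 2. Krt6a was at 37.3, 38.2 and 41.7 FPKM in controls and 52.3, 37.4 and 43.5 in mutants. Krt6a and Krt6b are 97.6% identical in coding sequence, and reads of one may have been given to the other. Krt16, a keratin of outer root sheath and of activated epidermis, was at 3.75, 5.64 and 7.01 FPKM in controls and 5.06, 1.95 and 4.44 in mutants, a difference of -0.46 (limma adjusted p = 0.614). It was thus lowest in mutant 2 and highest in control 3, as the hair shaft genes were.

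Suprabasal keratins ran opposite to the hair shaft keratins across libraries by summed FPKM. Summed over Krt1, Krt10 and Krt77 they came to 143, 86.8 and 47.1 FPKM in controls and 101, 195 and 127 in mutants. In all 4 tested suprabasal genes mutant 2 was highest, where it was highest in 3.44% of all tested genes. Control 3 was lowest in 3 of them, where it was lowest in 9.25% of all tested genes. The other is Krt78, at 1.3, 0.588 and 0.662 FPKM in controls and 0.893, 1.68 and 1.12 in mutants. The groups overlapped in all 4, whose median difference was 0.66. In FPKM, the hair shaft sum fell in the order control 3, control 2, mutant 1, mutant 3, control 1, mutant 2. This suprabasal sum rose in exactly that order. As shares of gene reads the orders did not match. The hair shaft share was 0.677%, 1.12% and 1.1% in controls and 0.745%, 0.332% and 0.761% in mutants. The suprabasal share was 0.0489%, 0.0342% and 0.0156% in controls and 0.0285%, 0.0689% and 0.0419% in mutants. Mutant 2 stayed lowest in the former and highest in the latter. Both sums come from the same libraries and share their depth.

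Krt10, the chief type I keratin of suprabasal epidermis, was at 62.6, 37.6 and 23.6 FPKM in controls and 41.1, 86.4 and 54.3 in mutants, a difference of 0.58 (SE 0.36, limma adjusted p = 0.632). Its partner Krt1 was at 11.9, 7.03 and 4.65 FPKM in controls and 10.5, 21.2 and 11.2 in mutants, a difference of 0.81 (SE 0.32, limma adjusted p = 0.374). Krt77 was at 68.5, 42.1 and 18.8 FPKM in controls and 49, 87.1 and 61.8 in mutants. Control 1 lay above mutants 1 and 3 in all 3 genes. Krt79, a keratin of the hair canal and sebaceous duct, followed with 55.4, 26.8 and 19.9 FPKM in controls and 54.5, 71.1 and 47 in mutants (difference 0.85, limma adjusted p = 0.369).

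Genes of cornified epidermis split, with 8 above 0 (71.3% of all tested genes were), 5 below and 0 called. Krtdap, a secreted protein of differentiating keratinocytes, was at 64.5, 37.2 and 15.6 FPKM in controls and 50.9, 104 and 81 in mutants. Lor, the loricrin of the cornified envelope, was at 10.3, 6.8 and 3.65 FPKM in controls and 6.75, 15.7 and 9.51 in mutants, highest in mutant 2 and lowest in control 3 as Krt10 was. Ivl, the involucrin gene, which is also active in the inner root sheath, was at 33.2, 36.8 and 36.3 FPKM in controls and 35, 17.1 and 35.8 in mutants, low in mutant 2 alone. Cnfn was at 16.2, 18 and 18.2 FPKM in controls and 15.6, 8.23 and 13.7 in mutants (difference -0.49, limma adjusted p = 0.418). Only in Cnfn did the groups not overlap, with mutants below controls as in 2.65% of all tested genes. The whole list of 13 tested genes had a median of 0.13. Its summed FPKM was 169 to 258 in controls and 242 to 267 in mutants. Epidermis left on the dermis after trypsin and epidermis-like parts of the follicle cannot be told apart here.

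With control 3 set against the 3 mutants, as the libraries with Y-linked RNA, 5 keratins passed, 4 higher and 1 lower, where 1.58% of all tested genes were called higher and 0.541% lower in the same fit. Krt1 (1.37), Krt77 (1.72), Krt79 (1.46) and Krt19 (1.01) were higher and Krt84 (-1.34) lower (limma adjusted p from 0.000935 to 0.0292). In this fit a lone control is assumed to vary as the mutants do, and control 3 was the lowest control in the first 3 of these genes and the highest in Krt84. This fit was added after the data were seen.

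Of the simple keratins, those of single-layered epithelia and glands, Krt8, Krt18 and Krt19 were higher in every mutant than in every control, as were 13.0% of all tested genes, and none passed. Their levels were low. Krt19 (chromosome 11, 100140810 to 100148665), also found in follicle stem cells, was at 0.641, 1.01 and 1.17 FPKM in controls (15 to 24 reads) and at 6.51, 2.73 and 1.95 in mutants (57 to 175 reads). The difference of 1.18 (SE 0.30, 95% interval 0.51 to 1.84) had the smallest p of all keratins (limma adjusted p = 0.155). Krt8 was at 0.846, 1.15 and 1.37 FPKM in controls and 4.33, 1.89 and 2.06 in mutants, a difference of 0.77 (SE 0.23, limma adjusted p = 0.211). Its partner Krt18 was at 1.05, 2.12 and 1.77 FPKM in controls and 5.15, 2.24 and 2.79 in mutants, a difference of 0.70 (SE 0.24, limma adjusted p = 0.292). Mutant 1 was highest in all 3 genes, where it was highest in 64.1% of all tested genes. Without mutant 3 Krt19 passed (1.46, limma adjusted p = 0.0468), in a fit that called 0.390% of all tested genes higher.

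**Figure D5:**
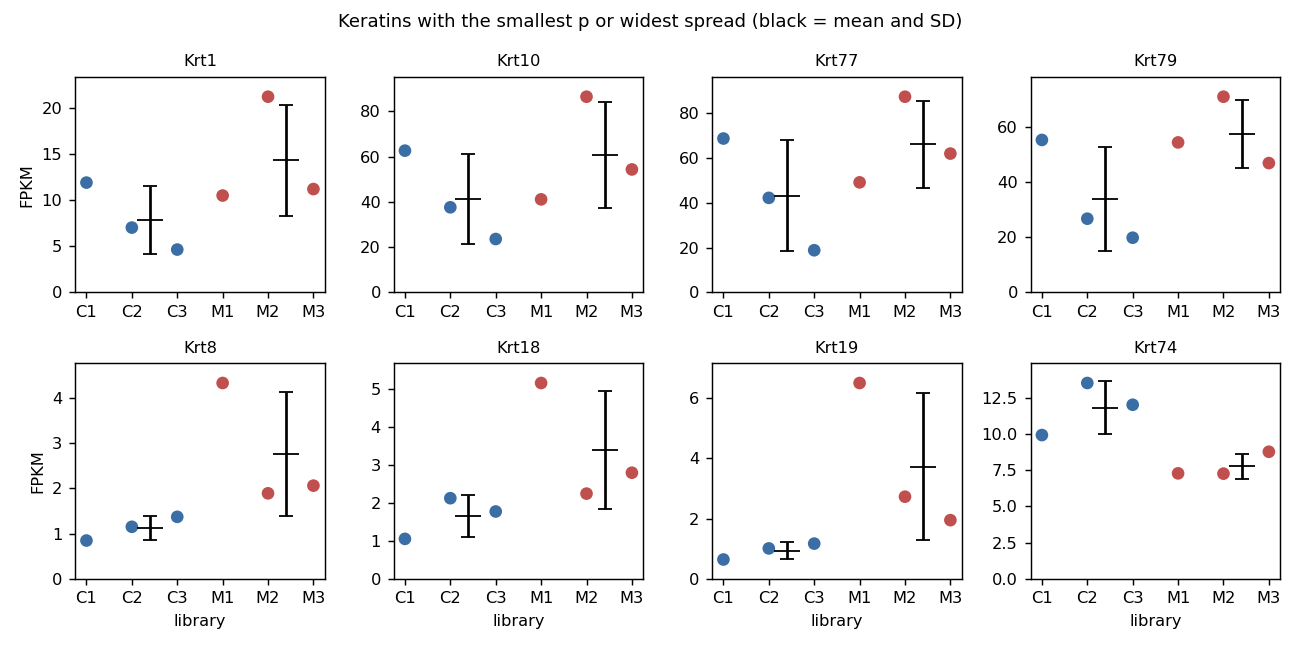
FPKM per library (C1 to C3 controls, M1 to M3 mutants, black the group mean with its SD, n = 3) of 8 keratins, each axis starting at 0. Krt8, Krt18 and Krt19 lie above all controls in every mutant and Krt74 below them, whereas in Krt1, Krt10, Krt77 and Krt79 the groups overlap.

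Simple keratins can come from Merkel cells, gland ducts or mesothelium, so lists for these were added after the values were seen. The 8 Merkel cell genes summed to 1.11 to 1.60 FPKM in controls and 1.16 to 1.5 in mutants. Their defining factor Atoh1 was at 0 in 5 of 6 libraries, and Krt20, the Merkel cell keratin, was at 0.517 to 1.21 FPKM in controls and 0.487 to 0.768 in mutants. The 10 genes of mammary and gland epithelium summed to 17.7 to 24.6 FPKM in controls and 16.2 to 23.9 in mutants. Elf5 (4.42 to 12.2 FPKM) and Areg (5.58 to 7.62) were the largest members, so the sum says little about the scarcer ones. Of 4 tested, 2 were above 0 and 2 below, with 0 called. Prlr was at 1.53 to 1.69 FPKM in controls and 1.76 to 2 in mutants, separate as in 13.0% of all tested genes. Foxa1 had 1, 2 and 5 reads in controls and 18, 8 and 4 in mutants. The milk protein genes Csn2 and Wap were at 0 in all controls, with at most 0.0839 FPKM in a mutant. Csn3, another milk protein gene, was at 0 to 0.168 in controls and at 1.28, 0.499 and 0.0294 in mutants, so the groups overlapped. Lalba, of the same list, was at 0 to 0.172 FPKM in controls and 0 to 0.192 in mutants. The 5 mesothelial genes summed to 0.602 to 0.799 FPKM in controls and 0.706 to 1.19 in mutants. Among them Wt1 was at 0 in all controls and at 0.215, 0.273 and 0.0608 in mutants. These values rest on 13, 18 and 4 reads, and Wt1 was under the filter and not tested. In the others, Msln, Upk3b, Upk1b and Lrrn4, the groups overlapped. Krt7, a keratin of ducts, was at 0.556, 0.318 and 0.548 FPKM in controls and 1.45, 0.532 and 0.504 in mutants, high in mutant 1 alone.

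Krt23 and Krt80, grouped with the simple keratins only by the role list used here, did not share the order of Krt8, Krt18 and Krt19. Krt23 was at 55.6, 59.9 and 56 FPKM in controls and 61.5, 32.2 and 50 in mutants. Krt80 was at 59.8, 61.2 and 65.1 FPKM in controls and 62, 41.1 and 55.8 in mutants. Both were far more abundant than Krt8 and were lowest in mutant 2, as the sheath genes were.

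The 12 keratins under 1 FPKM held 0 to 45 reads in any library. They include Krt4 and Krt13 of mucosa, Krt12 of cornea, Krt76 of the palate, Krt2, Krt9, Krt20, Krt24, Krt42, Krt6b, Krt7 and Krt222.

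Proteins that anchor keratin filaments at cell contacts had differences from -0.28 to 0.12. Of 14 tested desmosomal and plakin genes, 11 were below 0, with a median of -0.10 and 0 called. In 3 of them every mutant lay below every control (2.65% of all tested genes), and mutant 2 was lowest in 10 (35.2% of all tested genes). Their summed FPKM was 940 to 953 in controls and 960, 703 and 890 in mutants 1 to 3. The 12 epithelial genes that are not keratins had a median of -0.05, so the epithelium-wide level was closer to that of all genes than the hair shaft median was. This difference between lists was not tested.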

How the data were processed

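Stranded paired-end libraries of total RNA from 6 mice were made with a TruSeq Stranded Total RNA kit, per the labels' protocols. GSNAP, HTSeq and genome build mm10 are named in the submitters' processing notes without versions, and no annotation or counting option is given there. The authors deposited 1 FPKM value per gene and library. Values were compared as log2(FPKM + 1), which understates the change of low genes, for the 12560 genes whose average reached 1 FPKM, with limma 3.58.1 (R 4.3.3), an intensity trend, no covariate, Benjamini-Hochberg adjustment over all tested genes and a threshold of 0.05. Mice are named as separate in the labels, so the spread behind each p-value is that among mice, libraries included.

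The FPKM values of each gene step in units of 1 read, which gave reads for 23412 of 23412 genes (100%, relative tolerance 3e-09). That count includes 1820 genes at 0 in every library and 1448 seen in 1 library, for which nothing could be checked. The fit and the read recovery were tested on simulated data.

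The keratins, role groups and lists were chosen with earlier results of these data known. The text names the 4 most abundant keratins and the 3 with the smallest p in each group and role, with others by ranges or as examples chosen after their values were seen. Promoter letters TATAAA were added after the design. Alternatives covered the pseudocount (0.1, 5), the filter (none, 5 FPKM), 3 scalings, the trend, library sex, a replicate block, each library left out and limma-voom. The list gene Flg was not used here, and 1 hair shaft keratin is counted but not reported by name.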

Additional observations from a re-analysis of the deposited data

How the results depend on the processing

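No keratin was called under 16 of 18 alternatives. Without mutant 3 there was 1 call upward, and without both Xist-high controls there were 4 upward and 1 downward. Leaving out each library in turn gave 0 to 1 calls upward and 0 downward. The hair shaft median ranged from -0.86 to -0.13 and the inner root sheath median from -0.48 to -0.03 when a library was left out. With library sex as covariate the hair shaft median was -0.92. Only controls 1 and 2 were coded female, so this fit compares the mutants with control 3 alone. Control 3 was the highest library in 15 of 15 hair shaft genes. The fit without both Xist-high controls makes the same comparison and gave the same median, -0.92. The hair shaft and inner root sheath medians stayed below 0 in every alternative run.

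The median of other epithelial keratins (0.28) was 0.52 with pseudocount 0.1, 0.08 with no filter, 0.20 with the 5 FPKM filter, 0.20 after rescaling without keratin and keratin-associated genes, 0.41 with library sex as covariate, 0.38 with limma-voom and 0.41 without both Xist-high controls, and ranged from 0.17 to 0.44 when a library was left out. With no filter and with the 5 FPKM filter other genes are tested, 29 and 12 in place of 17. The cause of the other shifts was not tested.

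Sign changes were few and none involved a call. Rescaling without keratin and keratin-associated genes gave -0.06 for Krt5, -0.01 for Krt6a and -0.10 for Krt17. Median-of-ratios scaling gave -0.03 for Krt17, and limma-voom gave -0.02 for Krt5 and -0.06 for Krt17. With a library left out, Krt25 ranged from -0.37 to 0.11, Krt27 from -0.42 to 0.09, Krt71 from -0.46 to 0.06 and Krt75 from -0.35 to 0.06, each highest without mutant 2. Krt17 ranged from -0.04 without mutant 1 to 0.23 without mutant 2.

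The replicate numbers are shared by name only: same-numbered libraries had deviations correlated at 0.002, 0.037 and -0.082. With the replicate block 0 keratins were called and 67 of all genes rose, against 18 without it, and the group medians were unchanged at -0.59, -0.30 and 0.28.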
